A study of Mus musculus with 6 samples.

Results

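The genes described here encode fibronectin and 9 matricellular or collagen-associated matrix proteins: Postn, Fn1, Tnc, Thbs1, Thbs2, Sparc, Spp1, Ctgf, Comp and Cthrc1. They were taken by symbol from a table of 45038 genes, and each of the 10 symbols had 1 row. The table comes from RNA sequencing of 6 mouse libraries. All mice were C57BL/6 carrying Tie2-Cre and Rosa-LSL-tdTomato, so that Tie2-driven Cre switches on a red reporter, and the protocol gives an age of 6 to 8 weeks at surgery. The 3 MI libraries came from infarcted tissue taken 3 weeks after the left anterior descending coronary artery was ligated, and the 3 Normal libraries came from left ventricle labelled as without surgery. In both groups the cells were sorted as tdTomato-positive and F4/80-negative, F4/80 being a macrophage surface antigen. Tie2-Cre marks endothelial cells and also part of the blood cell lineage, so the sort is not a pure endothelial gate. Each group has libraries numbered Ms1535, Ms1537 and Ms1608, and nothing in the labels says that they come from separate mice within a group, so that the p-values describe variation among these libraries only, which may be technical.

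Matricellular proteins are secreted into the matrix but act mostly as signals and organisers rather than as load-bearing fibres. They bind collagens, growth factors, proteases and cell surface receptors such as integrins, syndecans, CD36, CD44 and CD47. Most are scarce in the healthy adult heart and abundant in a healing infarct, where fibroblasts, macrophages and other cells make them. Fibronectin, in turn, is the provisional scaffold on which collagen is laid down.

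RefSeq entries for the region just upstream of the transcription start (build GRCm38.p6) were matched by symbol for 5 of the 10 genes. Those of 3 are shown because their genes had different profiles over the libraries: Postn and Thbs2 had their highest values in MI libraries, whereas Spp1 had its highest value in a Normal library. Each is the 250 bases before the start, 5′ to 3′ on the gene's strand, and capitals mark the letters CAGAC or their reverse complement GTCTG, the short element bound by SMAD proteins.
Postn, chr3:54360857-54361106, plus strand: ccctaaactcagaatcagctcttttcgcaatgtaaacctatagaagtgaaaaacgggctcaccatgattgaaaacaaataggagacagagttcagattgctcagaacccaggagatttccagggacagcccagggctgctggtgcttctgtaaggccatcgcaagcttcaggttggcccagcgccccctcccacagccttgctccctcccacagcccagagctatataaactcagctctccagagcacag
Thbs2, chr17:14694263-14694512, minus strand: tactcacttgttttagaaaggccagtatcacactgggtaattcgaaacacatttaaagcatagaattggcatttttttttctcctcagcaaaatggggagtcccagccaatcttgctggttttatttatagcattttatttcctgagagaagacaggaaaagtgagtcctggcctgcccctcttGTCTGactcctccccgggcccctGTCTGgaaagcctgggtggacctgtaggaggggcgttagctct
Spp1, chr5:104434861-104435110, plus strand: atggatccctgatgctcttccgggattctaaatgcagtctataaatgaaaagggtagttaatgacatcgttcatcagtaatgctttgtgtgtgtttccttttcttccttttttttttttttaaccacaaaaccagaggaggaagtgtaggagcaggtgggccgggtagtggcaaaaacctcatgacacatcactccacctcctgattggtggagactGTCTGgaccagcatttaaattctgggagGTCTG
Thbs2 held 2 such matches, which begin 66 and 43 bases before the start, and Spp1 held 2, which begin 33 and 5 bases before it. Postn held 0 in this window. RefSeq lists a second start for Postn and for Spp1, not shown, and each of those windows held 1 match, which begins 191 and 41 bases before the start respectively. The letters occur on either strand in 42.2% of 32851 RefSeq windows of this length. The TEAD letters CATTCC (12.6% of windows) and the AP-1 letters TGANTCA (6.75% of windows), also sought on both strands, were in none of the 3 windows shown. Overlap between the 3 motifs could therefore not arise in these windows.

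Values are FPKM, fragments scaled by transcript length and to the mapped total of each library. RNA was amplified before sequencing and coverage along transcripts was not checked, so comparisons of level between genes are approximate. Several mitochondrial genes had no signal in some libraries of both groups and high values in the rest. Levels and sums may therefore not be fully comparable between libraries either. Depth read from the steps of the low values was 31.5 to 44.4 M (mega) fragments per library. The libraries were not alike within groups. On log2(FPKM + 1) across tested genes, Normal Ms1608 correlated with the other 5 libraries at 0.54 to 0.68. Its 10 endothelial markers summed to 37.3 FPKM, of which Pecam1, also carried by leukocytes, made up 28.3. In the other libraries that sum was 909 and 1285 FPKM (Normal) and 273 to 1086 FPKM (MI). Its 6 leukocyte markers summed to 3589 FPKM, where the other Normal libraries had 260.2 and 387 and the MI libraries 1866 to 2239. The sum of 11 fibroblast markers, among them Col1a1, Dcn and Pdgfra, was 5773, 5622 and 1186 FPKM in the MI libraries numbered Ms1535, Ms1537 and Ms1608. The Normal libraries with these numbers had 916, 1126 and 206 FPKM. Not all of that list was low in Normal Ms1608. Col3a1 was at 22.6, 21.2 and 40.9 FPKM in these Normal libraries, and Col1a2 at 20.9, 23.7 and 37.9 FPKM. No gene of the endothelial, leukocyte, fibroblast or macrophage lists was listed at 0 in any library. The plot of marker sums gives all 10 lists. In sorted bulk samples, fewer cells of a type and less RNA per cell cannot be told apart.

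**Figure D1:**
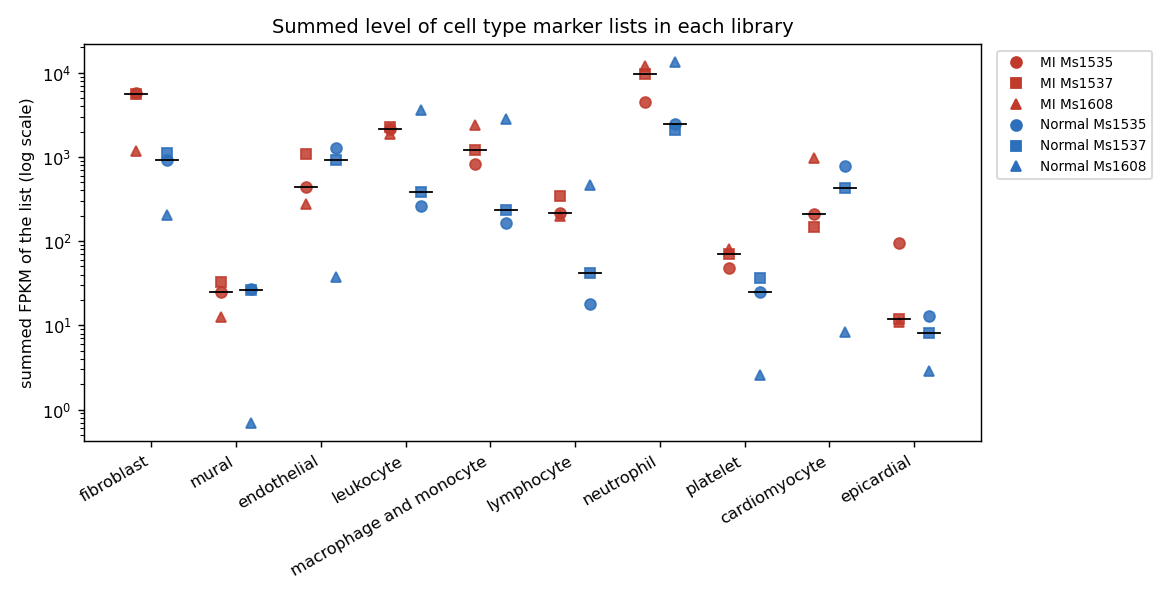
Summed FPKM (log axis) of each of 10 cell type marker lists, 1 point per library, MI in red and Normal in blue, with symbols for the Ms number and a black line at the group median. Normal Ms1608 had the lowest sum of endothelial (37.3 FPKM) and fibroblast markers (206 FPKM) and the highest sum of leukocyte markers (3589 FPKM). Not every gene of a list followed its sum.

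Sparc, Postn and Fn1 were the most abundant of the 10 genes in MI as a group, and 8 genes (Postn, Fn1, Ctgf, Comp, Thbs2, Sparc, Cthrc1 and Tnc) had higher mean levels in MI with their highest values in MI Ms1535 or Ms1537. Fn1, Thbs1 and Spp1 were also high in Normal Ms1608, above at least 2 of the MI libraries. The test took genes that reached 1 FPKM in 3 or more libraries, which left 10168 genes and 8 of the 10 members. Tnc and Cthrc1 did not reach that level. Thbs2 passed only through its 3 MI libraries, so its difference was partly set by the filter. By limma on log2(FPKM + 1), adjusted over all tested genes by Benjamini-Hochberg, 0 of the 8 members passed 0.05, where 0.00983% of all tested genes did (1 gene, Gm24890, a predicted gene listed at 0 in all Normal libraries and named here after its values were seen). At an unadjusted p under 0.05, 4 of the 8 were higher in MI (Postn, Ctgf, Comp and Thbs2) and 0 lower, against 16.1% and 0.207% of tested genes. The same 4 had all MI libraries above all Normal libraries, a state found for 25.0% of tested genes, and 0 members showed the reverse, found for 0.354%. The median log2 difference was 2.18 over the 8 members and 0.78 over all tested genes, so values above 0 were common in the whole table (87.2% of tested genes).

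**Figure D2:**
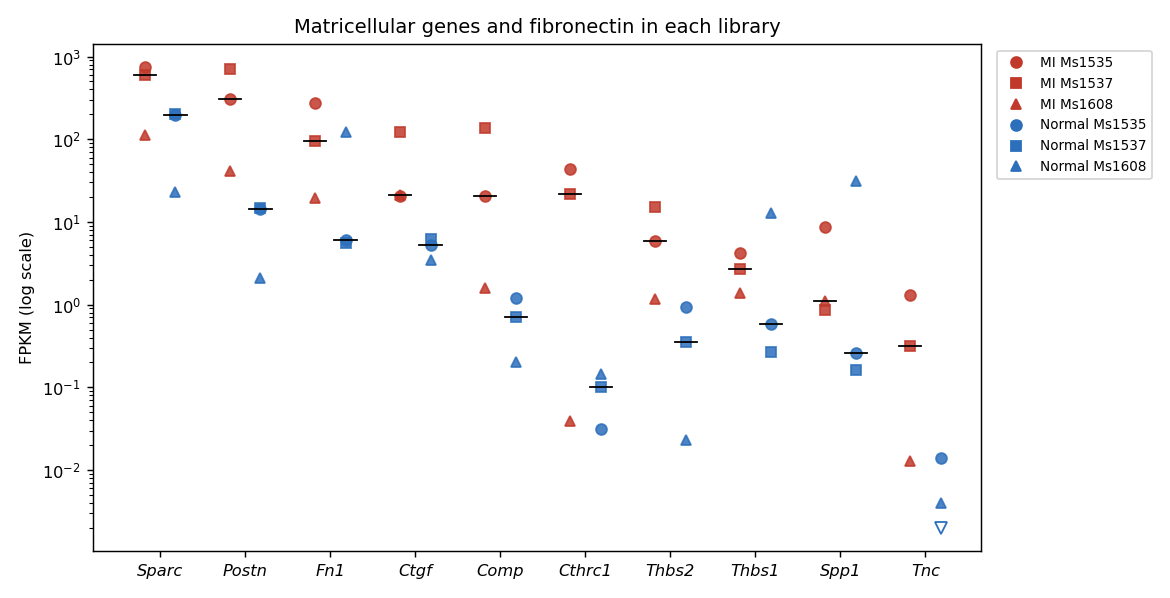
FPKM (log axis) of the 10 genes, 1 point per library, MI in red and Normal in blue, with a black line at the group median; the open triangle at the bottom marks Tnc in Normal Ms1537, whose value lies below the axis. Postn, Ctgf, Comp and Thbs2 separate the groups, whereas Fn1, Thbs1 and Spp1 have Normal Ms1608 at 123, 13.01 and 31.2 FPKM, among or above the MI values.

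Postn encodes periostin, which binds collagen I and fibronectin, promotes collagen cross-linking and marks activated fibroblasts. In the order Ms1535, Ms1537 and Ms1608, which is kept throughout, it measured 309.7, 705 and 41.7 FPKM in the infarct libraries and 14.3, 14.8 and 2.07 FPKM in the Normal ones. The lowest MI library lay above the highest Normal library, although the MI values were widely spread. The log2 difference was 4.54 (SE 1.08, limma adjusted p = 0.245), the largest among the 8 tested members. The sum of fibroblast markers was also highest in MI Ms1535 and Ms1537 and lowest in Normal Ms1608. Not every marker followed Postn among the Normal libraries. Col3a1 and Col1a2 were highest in Normal Ms1608 there (40.9 and 37.9 FPKM), whereas the other markers of the list were lowest in it. The part of fibroblasts in the Postn difference was not tested.

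Sparc encodes osteonectin, a collagen-binding protein that endothelial cells and fibroblasts both secrete and that takes part in collagen processing. It measured 747, 599.7 and 114 FPKM in the infarct libraries and 199, 201 and 22.8 FPKM in the Normal ones. MI Ms1608 lay below Normal Ms1535 and Ms1537, so the groups overlapped. The log2 difference of 1.92 (SE 1.00, limma adjusted p = 0.348) became 0.89 (SE 0.74, limma adjusted p = 0.398) without Normal Ms1608, close to the median of all tested genes in that comparison, 0.83. Sparc was the most abundant of the 10 genes in 4 of the 6 libraries.

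Cthrc1 encodes a secreted glycoprotein with a short collagen-like repeat that marks matrix-producing fibroblasts of the infarct scar. It was at 43.7 and 21.6 FPKM in MI Ms1535 and Ms1537 but at 0.0391 FPKM in MI Ms1608, while the Normal libraries held 0.0312, 0.09997 and 0.147 FPKM. At the depths read from the low values and the exonic length of the gene, the 4 low values correspond to about 1.96 to 8.12 fragments, against about 3090 and 1320 fragments in the 2 high libraries. Cthrc1 thus stood far above the other libraries in 2 of 3 MI libraries and was near the limit of detection in the third. With no filter on low values limma gave it a log2 difference of 3.22 (SE 1.40, adjusted p = 0.649).

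Fn1 encodes fibronectin, which cells assemble into fibrils through integrins. It measured 277, 95.7 and 19.6 FPKM in the infarct libraries and 6.13, 5.49 and 123 FPKM in the Normal ones. Normal Ms1608 lay above MI Ms1537 and MI Ms1608, whereas the other Normal libraries lay below all MI libraries. The log2 difference was 2.198 (SE 1.27, limma adjusted p = 0.388) with all libraries and 3.59 (SE 0.92, limma adjusted p = 0.0605) without Normal Ms1608. In that library, Fn1 made up 62.7% of the summed FPKM of the 10 genes, compared with 2.69% and 2.395% in the other Normal libraries and 5.63% to 19.2% in MI. Leukocyte and macrophage marker sums were also highest in that library, the latter mostly through Lyz2 (2454 FPKM). Genes of the macrophage list were split there: Mrc1, Cd14 and Itgam were at their highest, but Adgre1, Fcgr1, Trem2 and C1qa at their lowest. The part of leukocytes and macrophages in the Fn1 level was not tested.

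**Figure D3:**
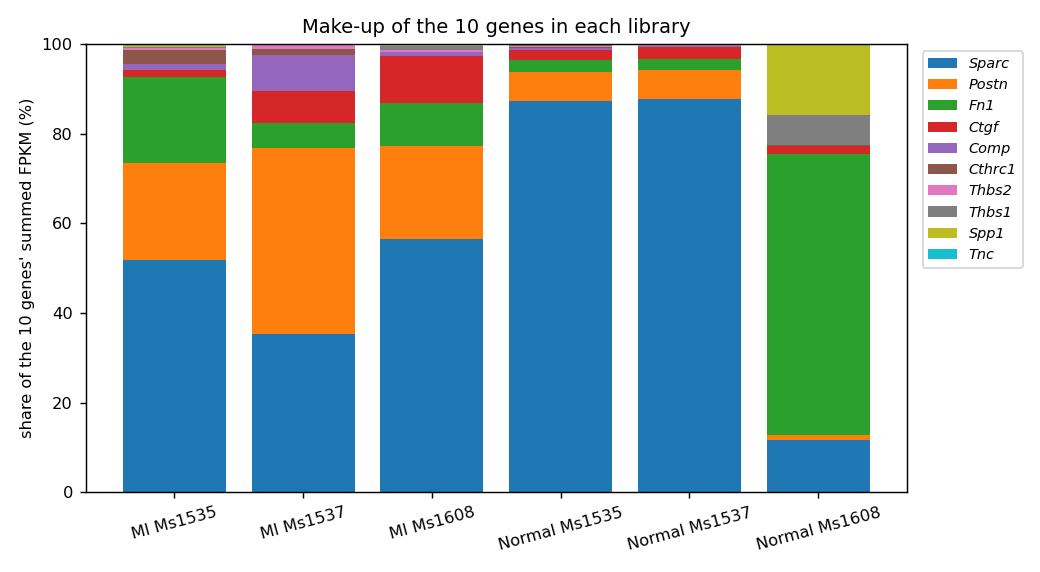
Stacked bars of each gene's share (%) of the summed FPKM of the 10 genes in each of the 6 libraries. Sparc takes 87.4% and 87.7% in Normal Ms1535 and Ms1537, Postn takes 20.6% to 41.5% in the MI libraries, and Fn1 takes 62.7% in Normal Ms1608.

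The make-up of the 10 genes also differed between libraries. Their sum was 1438 and 1699 FPKM in MI Ms1535 and Ms1537, 202 in MI Ms1608, and 228, 229 and 196 in the Normal libraries, so that MI Ms1608 did not exceed Normal Ms1535 or Ms1537. The share of Postn was nonetheless 20.6% in MI Ms1608, close to the 21.5% of MI Ms1535 and above the 6.27% and 6.48% of Normal Ms1535 and Ms1537. These shares are descriptions of single libraries and were not tested.

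The thrombospondin members did not share 1 profile. Thbs1 and Thbs2 encode the trimeric thrombospondins, which bind CD36 and CD47 and restrain vessel growth, and thrombospondin-1 also activates latent TGF-beta. Comp, also called thrombospondin-5, encodes a pentameric protein of cartilage and tendon that binds collagen fibrils. Thbs1 measured 4.22, 2.68 and 1.37 FPKM in the infarct libraries and 0.581, 0.268 and 13.01 FPKM in the Normal ones, with its highest value in Normal Ms1608. Its difference on the log2 scale was 0.23 (SE 0.89, limma adjusted p = 0.911), below the median of all genes, and turned to -0.43 after median-ratio scaling, -0.10 after upper-quartile scaling and -0.43 after quantile normalization. Without Normal Ms1608 it was 1.34 (SE 0.46, limma adjusted p = 0.104), with all 3 MI libraries above the 2 Normal ones. Thbs1 met the filter through the MI libraries and Normal Ms1608 alone, so this difference was partly set by it. In Normal Ms1608, macrophage and monocyte markers summed to 2800 FPKM, of which Lyz2 made up 2454 FPKM. Mrc1, Cd14 and Itgam of that list were at their highest there, but Adgre1, Fcgr1, Trem2 and C1qa at their lowest. Platelet markers summed to 2.57 FPKM in that library, with Ppbp and Gp9 listed at 0. Gp9 was also listed at 0 in MI Ms1537 and Normal Ms1535. The part of these cells in the value was not tested.

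Thbs2 measured 5.80, 15.3 and 1.16 FPKM in the infarct libraries and 0.926, 0.349 and 0.0231 FPKM in the Normal ones. MI Ms1608 lay only slightly above Normal Ms1535. The log2 difference was 2.17 (SE 0.73, limma adjusted p = 0.252). Comp measured 20.8, 136 and 1.60 FPKM in the infarct libraries and 1.21, 0.713 and 0.202 FPKM in the Normal ones, again with MI Ms1608 just above Normal Ms1535. Its difference on the log2 scale was 3.58 (SE 1.22, limma adjusted p = 0.252), and 5.05 was the highest and 2.19 the lowest value over the other settings tried, both from leaving out 1 MI library (Ms1608 and Ms1537 respectively).

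Ctgf, now also named Ccn2, encodes connective tissue growth factor, a CCN family protein induced by TGF-beta and by YAP with TEAD factors. It measured 20.8, 122 and 21.2 FPKM in the infarct libraries and 5.30, 6.22 and 3.44 FPKM in the Normal ones. Relative to their mean, its Normal values were the least spread among the 10 genes, 4.99 ± 1.42 FPKM (SD, n = 3), and Normal Ms1608 did not stand apart from the other Normal libraries. All MI libraries lay above all Normal libraries by more than the spread of the Normal values. The log2 difference was 2.73 (SE 0.82, limma adjusted p = 0.246) with all libraries and 2.53 (SE 0.76, limma adjusted p = 0.0809) without Normal Ms1608.

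Spp1 encodes osteopontin, a secreted integrin and CD44 ligand made in infarcts largely by macrophages. It measured 8.70, 0.857 and 1.12 FPKM in the infarct libraries and 0.261, 0.162 and 31.2 FPKM in the Normal ones. The highest library was Normal Ms1608, and the next was MI Ms1535. The log2 difference was -0.10 (SE 1.23, limma adjusted p = 0.976), and it was 1.48 (SE 0.68, limma adjusted p = 0.173) without Normal Ms1608, where all MI libraries lay above both Normal libraries. The sum of macrophage and monocyte markers was 833, 1199 and 2380 FPKM over the MI libraries and 163, 233 and 2800 FPKM over the Normal ones. Lyz2 alone made up 2454 FPKM of that sum in Normal Ms1608. Adgre1, Fcgr1, Trem2 and C1qa were at their lowest in that library (0.00904, 0.177, 0.0303 and 2.28 FPKM). Mrc1, Cd14 and Itgam were at their highest there (95.2, 123.6 and 57.8 FPKM), so the genes of this list did not move together. Neutrophil markers also had their highest sum there, 13379 FPKM, mostly through S100a8 and S100a9 (6890 and 6169 FPKM). Csf3r, Cxcr2 and Retnlg of that list were not at their highest in Normal Ms1608 (12.1, 1.15 and 306.5 FPKM). In MI Ms1608 they were at 23.1, 12.8 and 438.5 FPKM. The part of macrophages, monocytes and neutrophils in the Spp1 level was not tested.

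Tnc encodes tenascin-C, an anti-adhesive protein that appears transiently at the borders of injured muscle. It was the least abundant member, at 1.31, 0.316 and 0.0130 FPKM in MI and at 0.0138, 4.07e-09 and 0.00399 FPKM in Normal. MI Ms1608 and the Normal libraries held values equal to about 4.32 fragments or fewer, so that Tnc was detectable beyond a few fragments in 2 libraries only, MI Ms1535 (about 452 fragments) and MI Ms1537 (about 94). With no filter on low values limma gave it a log2 difference of 0.53 (SE 0.30, adjusted p = 0.649).

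MI Ms1535 had the highest values of Tnc, Cthrc1, Fn1, Sparc, Thbs1 and Spp1 among the MI libraries. The same library held the highest epicardial markers: Wt1, a transcription factor of epicardium that endothelium of injured heart also expresses, was at 83.6 FPKM there and at 1.06 to 12.96 FPKM in the other libraries. Msln, a mesothelial surface protein, was at 4.84 FPKM there and at 0.317 FPKM or less elsewhere, and Upk3b was at 1.72 FPKM there and at 0.0651 or less elsewhere. Upk1b was at 3.98 FPKM there and also at 1.49 FPKM in Normal Ms1608. Their part in the levels of the 10 genes was not tested. MI Ms1537 had the highest Postn, Ctgf, Comp and Thbs2 instead.

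**Figure D4:**
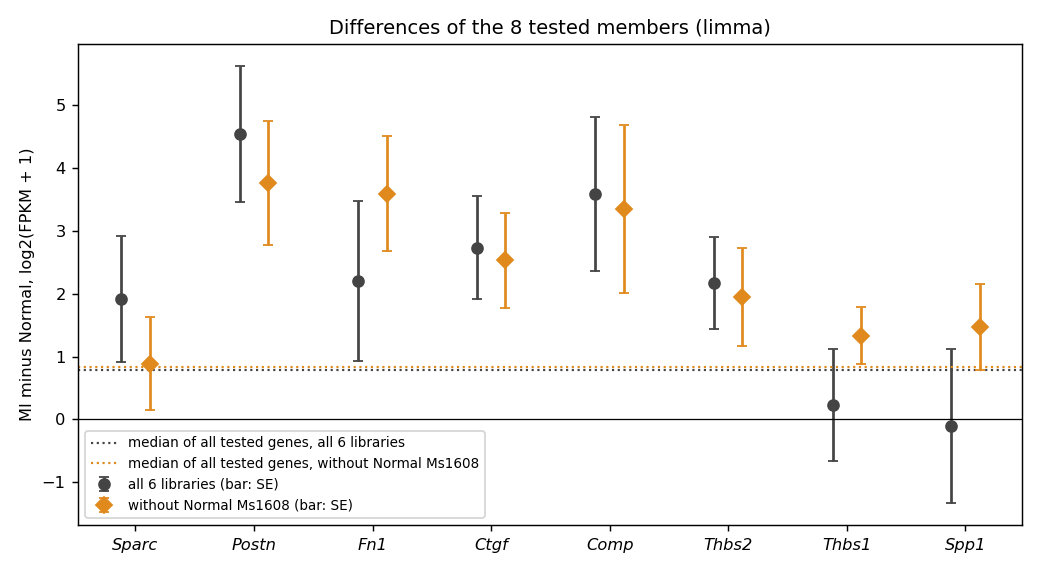
MI minus Normal differences of the 8 tested members on the log2(FPKM + 1) scale (points, with bars of 1 SE from limma), with all 6 libraries in grey and without Normal Ms1608 in orange; dotted lines mark the median of all tested genes. Postn, Comp and Ctgf lie above 2.5 either way, Sparc moves to 0.89, and Thbs1 and Spp1 move from 0.23 and -0.10 to 1.34 and 1.48.

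Normal Ms1608 was singled out after its values were seen, and leaving it out keeps only Ms1535 and Ms1537 as Normal. Results without it are therefore descriptive. Without Normal Ms1608, 0 of the 8 members passed the limma threshold, where 4.51% of all tested genes did (452 higher and 7 lower). At an unadjusted p under 0.05, 6 members were higher and 0 lower, against 30.8% of tested genes higher. All MI libraries lay above both Normal libraries for 7 of the 8 members, against 52.6% of tested genes, with Sparc as the exception, and 0 members showed the reverse, found for 1.75%. Thbs1, Thbs2 and Spp1 stayed below 1 FPKM in both Normal libraries kept, so their differences here were partly set by the filter. The members' median log2 difference was 2.24, beside 0.83 over all tested genes. Within the number Ms1608 alone, MI minus Normal was 3.79 for Postn, 2.32 for Ctgf, 2.27 for Sparc, 1.11 for Comp and 1.08 for Thbs2, but -2.58 for Fn1, -2.56 for Thbs1 and -3.92 for Spp1 on the log2(FPKM + 1) scale. Within Ms1535 and within Ms1537 the differences of these 8 genes were above 0, from 0.68 (Spp1, Ms1537) to 6.33 (Comp, Ms1537).

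Profiles over the 6 libraries were compared by the root mean square distance between log2(FPKM + 1) values centred on each gene's mean. Among the 8 tested members the nearest pairs were Thbs2 and Ctgf (0.61), Thbs1 and Spp1 (0.74) and Postn and Comp (0.91), and the farthest was Postn and Spp1 (3.56). Among all tested genes with a proper name, the 3 nearest to Postn were Apaf1 (0.75), Col5a2 (0.76) and Timp2 (0.81). Col5a2, a chain of type V collagen, measured 74.99, 57.3 and 4.87 FPKM in the infarct libraries and 3.12, 4.23 and 0.140 FPKM in the Normal ones. The 3 nearest to Fn1 were Nr4a2 (0.53), Osbpl3 (0.60) and Nr4a3 (0.61). Nr4a2, an orphan nuclear receptor induced early after stimulation, measured 34.5, 22.4 and 6.81 FPKM in the infarct libraries and 1.24, 0.554 and 19.4 FPKM in the Normal ones, and so shared the high value in Normal Ms1608. The nearest to Spp1 were Hs3st3b1 (0.28), Taf1b (0.41) and Psph (0.42), and the nearest to Sparc were Fmo2 (0.24), Mgat2 (0.27) and Fam188a (0.28). These distances rest on 6 libraries and describe likeness only.

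Of 29 other matricellular and related glycoproteins, 16 were tested. By limma 0 passed the threshold in either direction, and 7 were higher and 0 lower at an unadjusted p under 0.05, against 16.1% and 0.207% of all tested genes. The list had a median log2 difference of 2.18, with 16 of 16 above 0, against 87.2% of all tested genes. Without Normal Ms1608 the median was 1.45 and 14 of 16 were above 0 (87.7% of all tested genes), with Sparcl1 at -0.65 and Mfge8 at -0.32. The largest differences were those of Wisp2, Fstl1 and Fbln1. Wisp2, a CCN family protein like Ctgf, had MI levels of 12.5, 99.9 and 3.08 FPKM, Normal levels of 1.06, 2.69 and 0.139 FPKM and a log2 difference of 3.11 (SE 1.10, adjusted p = 0.252 by limma). It was also the gene nearest to Comp in profile, at a distance of 0.62. Fstl1, a SPARC-related secreted glycoprotein, had MI levels of 126, 160.1 and 35.2 FPKM, Normal levels of 15.3, 16.3 and 4.601 FPKM and a log2 difference of 2.96 (SE 0.81, adjusted p = 0.245 by limma). Fbln1, which binds fibronectin and elastic fibres, had MI levels of 26.7, 64.1 and 7.69 FPKM, Normal levels of 3.62, 5.46 and 0.196 FPKM and a log2 difference of 2.93 (SE 0.95, adjusted p = 0.247 by limma). For each of the 3 genes the lowest MI library lay above the highest Normal library. This held for 6 of the 16 tested genes of the list and for 25.0% of all tested genes.

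Without Normal Ms1608, 2 of the 16 tested genes of that list passed the threshold as higher in MI, against 4.45% of all tested genes. The log2 difference was 3.21 for Lgals3 (SE 0.47, limma adjusted p = 0.0210) and 2.55 for Tgfbi (SE 0.43, limma adjusted p = 0.0256). That library was left out after its values were seen, so these results are descriptive. Lgals3 encodes galectin-3, a lectin abundant in macrophages, and measured 69.7, 37.7 and 65.4 FPKM in the infarct libraries and 4.999, 5.22 and 219 FPKM in the Normal ones. Tgfbi encodes a periostin-related protein and measured 48.1, 42.2 and 51.6 FPKM beside 8.28, 6.33 and 87.6 FPKM. With Normal Ms1608 both genes had overlapping groups (limma adjusted p = 0.543 and 0.447). Leukocyte marker sums moved the same way over these libraries, and their part was not tested. Tgfbi, the nearest relative of Postn, was thus high in Normal Ms1608, where Postn itself was lowest.

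Among 19 receptors of the members, 12 were tested, and by limma 0 passed the threshold, with 3 higher and 0 lower at an unadjusted p under 0.05, against 16.1% and 0.207% of all tested genes. Itgav, the integrin alpha-v subunit that pairs with several beta subunits to bind fibronectin, osteopontin, periostin and tenascin-C, had MI levels of 110.2, 107.8 and 51.0 FPKM, Normal levels of 15.0, 17.0 and 2.61 FPKM and a log2 difference of 3.08 (SE 0.80, adjusted p = 0.245 by limma). Sdc4, a heparan sulphate proteoglycan that acts with integrins on fibronectin, had MI levels of 16.6, 12.8 and 5.39 FPKM, Normal levels of 0.515, 0.690 and 2.07 FPKM and a log2 difference of 2.54 (SE 0.69, adjusted p = 0.245 by limma). Sdc1 had MI levels of 17.6, 6.02 and 3.49 FPKM, Normal levels of 0.556, 0.644 and 0.715 FPKM and a log2 difference of 2.35 (SE 0.67, adjusted p = 0.245 by limma). Sdc1 reached 1 FPKM in the MI libraries alone, so that its difference was partly set by the filter. In Itgav, Sdc4 and Sdc1 the MI libraries lay above all Normal libraries, Normal Ms1608 included. This held for 4 of the 12 tested receptors and for 25.0% of all tested genes.

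Without Normal Ms1608, left out after its values were seen, 4 receptors passed the threshold as higher in MI, against 4.45% of tested genes. Their log2 differences were 2.34 for Itgav (SE 0.49, limma adjusted p = 0.0394), 2.86 for Sdc4 (SE 0.57, limma adjusted p = 0.0355), 3.10 for Cd44 (SE 0.51, limma adjusted p = 0.0238) and 2.14 for Itga4 (SE 0.43, limma adjusted p = 0.0369). Sdc4 and Itga4 met the filter through the MI libraries and Normal Ms1608 alone, so their differences here were partly set by it. Cd44, the receptor of hyaluronan and osteopontin, and Itga4, a leukocyte integrin subunit that binds fibronectin and osteopontin, were at 47.9 and 6.65 FPKM in Normal Ms1608, above every MI library, and their groups overlapped with it included. Cd36, the thrombospondin and fatty acid receptor of capillaries, had MI levels of 121, 220.2 and 32.4 FPKM and Normal levels of 326, 331 and 4.93 FPKM. With Normal Ms1608 its groups overlapped, with a log2 difference of 0.16 (SE 1.44, adjusted p = 0.965 by limma), and without that library the difference was -1.77 (SE 0.72, adjusted p = 0.137 by limma). Itgb1, the beta-1 partner of many of these integrins, differed little (0.22, SE 0.71, limma adjusted p = 0.896), and Itga5, the alpha subunit of the classical fibronectin receptor, was listed below 0.06 FPKM in each library and not tested.

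**Figure D5:**
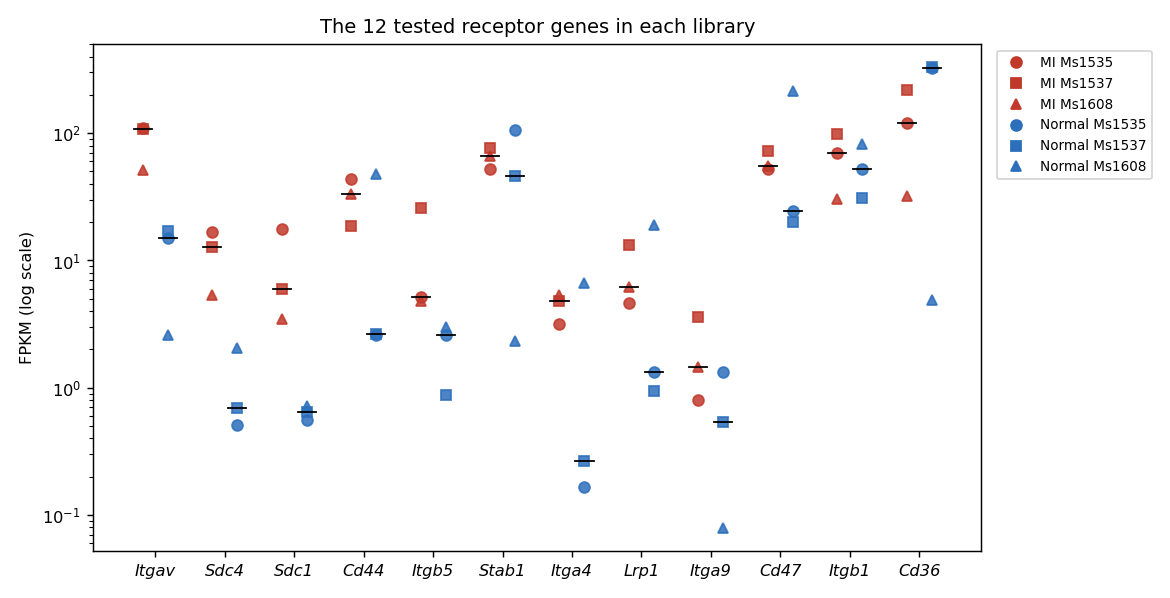
FPKM (log axis) of the 12 tested receptor genes, 1 point per library, MI in red and Normal in blue, with a black line at the group median. Itgav, Sdc4 and Sdc1 have every MI library above every Normal library, Cd44 and Itga4 have Normal Ms1608 at the top (47.9 and 6.65 FPKM), and Cd36 is highest in Normal Ms1535 and Ms1537.

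Of 16 inducers and transcriptional regulators (TGF-beta, YAP and SRF pathways), 13 were tested. By limma 0 passed the threshold, with 3 higher and 0 lower at an unadjusted p under 0.05 (16.1% and 0.207% of all tested genes), and the list median was 0.82, near the 0.78 of all tested genes. Tgfb3, a TGF-beta ligand, had MI levels of 13.7, 22.1 and 1.10 FPKM, Normal levels of 0.861, 0.625 and 0.141 FPKM and a log2 difference of 2.56 (SE 0.87, adjusted p = 0.252 by limma). Tgfb3, like Smad3, another of the 3 genes counted as higher, passed the filter only through its MI libraries, so both differences were partly set by it. Skil, a feedback inhibitor of SMAD signalling, had MI levels of 13.9, 14.2 and 6.31 FPKM, Normal levels of 3.47, 2.12 and 2.87 FPKM and a log2 difference of 1.65 (SE 0.67, adjusted p = 0.281 by limma). Tead1, the DNA-binding partner of YAP, had MI levels of 5.79, 11.97 and 3.04 FPKM, Normal levels of 3.19, 1.76 and 0.315 FPKM and a log2 difference of 1.52 (SE 0.72, adjusted p = 0.317 by limma). Tgfb1 was below 0.3 FPKM in each library and was not tested. Without Normal Ms1608, 0 of the 13 passed the limma threshold and 5 were higher at an unadjusted p under 0.05, against 30.8% of all tested genes.

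On GRCm38, as annotated by GENCODE M21, Postn lies at chr3:54361109-54391037 on the plus strand, Fn1 at chr1:71585520-71653200 on the minus strand, Sparc at chr11:55394500-55423183 on the minus strand and Ctgf at chr10:24595442-24598683 on the plus strand. Exons of 5 members overlap those of another gene: 665 bases of Ctgf with Gm15270, 292 bases of Fn1 with Apol7d, 208 bases of Thbs1 with Gm29233 and 176 bases of Tnc with 8030451A03Rik, all on the opposite strand, and 309 bases of Spp1 with Gm42793 on the same strand. These neighbours were listed at 0.785 FPKM or less in every library. The strand setting of the deposited values is not given in the sources used here, so fragments from the shared exons cannot be told apart.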

How the data were processed

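Tie2-Cre lineage cells (tdTomato-positive, F4/80-negative) were sorted from infarct or normal left ventricle, and RNA was amplified by T7 in vitro transcription before paired-end sequencing, per the labels' protocols. The authors deposited FPKM values, 1 column per library, made with STAR 2.4.2a and Cufflinks 2.2.1 on GRCm38, per the submitters' processing notes. Annotation release, strand setting and multi-mapping treatment are not given in the sources used here. Libraries were grouped by title into 3 MI and 3 Normal.

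FPKM were used as deposited. Several mitochondrial genes had no signal in some libraries and high values in others, a split that crosses the groups. For mt-Rnr2 the infarct libraries had 12945, 10578 and 0 FPKM and the Normal ones 0, 0 and 5612 FPKM. The zeros of mt-Cytb and mt-Nd1 fell likewise, whereas mt-Nd6 had 12454, 6739 and 0 FPKM beside 32832, 32529 and 3187 FPKM. Whether all libraries were quantified alike, and the part of this in the differences reported, was not tested. Genes that reached 1 FPKM in 3 or more libraries were tested with limma 3.58.1 (R 4.3.3, lmFit, then eBayes with its trend option) on log2(FPKM + 1), a scale that understates changes of low genes. The model held the group alone, with Benjamini-Hochberg adjustment over all 10168 tested genes. The procedure was tested on simulated data with the same noise in every gene and no outlying library. These data do not match that setting, so the simulation does not give the power or error rate here. With 3 libraries against 3, the smallest p of an exact two-sided permutation test is 0.1, so none was used for single genes. No set test was run.

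Depth was read from FPKM times length in genes of 1 transcript in GENCODE M21 (98.6% of identifiers matched): at the best total, 66.7% to 73.5% of low values lay within 0.1 of a whole fragment, against 20% if evenly spread. The total was chosen on these same values, and the labels' protocol names about 10 M reads for a sample, a difference left unresolved. Fragment numbers given for a gene use its whole exonic length and are approximate. They cover counting error only.

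The members and gene lists were chosen with earlier results of these data known. The named genes are all 10 members, the 3 tested genes with the largest difference in each related list, genes past the threshold, and the 3 nearest profiles. Other genes named, such as Tgfb1, Itga5, Itgb1, Cd36, Smad3, Sparcl1, Mfge8 and single cell type markers, were picked after their values were seen. Alternatives were other pseudocounts, filters and scalings, no trend, the Ms number as a block, and leaving out each library. Among these, leaving out Normal Ms1608 was singled out after its values were seen. Protein sequences were not used here.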

Additional observations from a re-analysis of the deposited data

How the results depend on the processing

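None of the 8 tested members passed the limma threshold under any of the 15 alternatives (adjusted p from 0.0605 to 0.993). Postn, Fn1, Thbs2, Sparc, Ctgf and Comp stayed above 0 in every alternative in which they were tested, with log2 differences of 3.51 to 5.69, 1.15 to 3.59, 1.03 to 3.66, 0.83 to 2.76, 1.73 to 3.15 and 2.19 to 5.05. Thbs1 turned negative in 7 of 14: -0.077 with a pseudocount of 5 FPKM, -0.43, -0.10 and -0.43 under median-ratio, upper-quartile and quantile scaling, and it ranged from -0.40 (without Normal Ms1537) to 1.34 (without Normal Ms1608) when 1 library was left out, with -0.04 without MI Ms1535 and -0.24 without Normal Ms1535. Spp1 turned positive in 4 of 15: 0.60 with a pseudocount of 0.1 FPKM, and between -0.92 and 1.48 when 1 library was left out, with 0.33 without MI Ms1537, 0.23 without MI Ms1608 and 1.48 without Normal Ms1608. The number of genes called was 1 under all alternatives except leaving out MI Ms1537 (2) and Normal Ms1608 (459), so it ranged from 1 to 459, and the cause was not tested. The median of all tested genes was 0.78 as deposited and -0.03, 0.20 and -0.05 under those 3 scalings. Relative to that median as deposited, Postn stood at 3.76, Comp at 2.80, Ctgf at 1.95, Fn1 at 1.41, Thbs2 at 1.38, Sparc at 1.13, Thbs1 at -0.55 and Spp1 at -0.89.

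With the Ms number as a replicate block, 1 gene and 0 members were called, and the Postn difference stayed at 4.54 (limma adjusted p = 0.198). Deviations from the group means of same-numbered libraries correlated across genes at -0.05, 0.10 and 0.09 for Ms1535, Ms1537 and Ms1608. Not every library correlated best with its own number. With so few libraries, and Normal Ms1608 far from the other Normal ones, these correlations cannot decide whether the numbers are pairs. The labels do not say what a number shares, so the main fit did not use it. In quantile normalization, values of a gene depend on those of all others. Depth limits Tnc and Cthrc1, whose low values correspond to a few fragments.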
